A study of Homo sapiens with 6 samples.

Results

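The genes described here are the cilia genes of the count table whose symbol begins with IFT or BBS and a digit, or with CFAP, TCTN, DYNC2, DNAH, DNAI or RSPH. The rule finds 79 of 30051 genes and uses no measured value. The cells were MDA-MB-231, an established line from a human breast cancer that is triple-negative and claudin-low, and poly(A) RNA was sequenced from 6 libraries. All cells were this 1 line with no genetic change named in the labels, and received either the solvent DMSO (replicates 1, 2 and 3) or 50 nM panobinostat for 24 h (replicates 1, 2 and 4). Panobinostat inhibits most histone deacetylases, and the series title pairs it with HER3. The series' text calls the repeats of each condition independent, so a p-value measures the spread between 3 such repeats per treatment.

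A cilium is a microtubule rod, the axoneme, that projects from the cell surface. Most cell types can grow a single immotile primary cilium, which carries receptors, while multiciliated cells of the airway or oviduct carry many beating ones. Intraflagellar transport (IFT) builds both kinds: kinesin-2 motors move the IFT-B complex to the tip, and dynein-2 with the IFT-A complex returns cargo to the base. The BBSome rides on these trains and carries membrane proteins out of the cilium, a chaperonin-like group of BBS proteins helps to assemble it, and the tectonic proteins sit in the transition zone, the gate at the base. Axonemal dyneins (DNAH heavy chains, DNAI intermediate chains), radial spokes (RSPH) and many of the proteins named CFAP (cilia and flagella associated protein) make an axoneme beat, and primary cilia largely lack them. Here the members are 3 IFT-A genes, 11 IFT-B genes, 2 dynein-2 genes, 6 BBSome genes, 2 BBS chaperonin genes, 3 tectonic genes, 12 DNAH, 2 DNAI, 8 RSPH and 28 CFAP genes, and 2 antisense transcripts. The 27 genes of the first 6 groups are called transport and gate genes, and the 50 DNAH, DNAI, RSPH and CFAP genes are called the motile group. The symbols in the table are older ones in part, so some subunits, such as WDR19 of IFT-A and WDR60 of dynein-2, fall outside the rule and are described with the other pathway genes.

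Total counts per library ranged from 5389638 to 15106148. Levels are CPM, counts scaled to a library total of 1000000 after adjustment by TMM, which sets the bulk of genes level between libraries, and n = 3 per treatment throughout. Panobinostat replicate 4 stood apart: on the first principal component the DMSO libraries lay between −49.1 and −47.6, panobinostat replicates 1 and 2 at 62.9 and 63.9, and replicate 4 at 18.3. Counts per group without this library are therefore given too. All 5 mesenchymal markers examined were expressed in DMSO, VIM the highest at 2570 CPM, and with the drug 1 of them (VIM, 2870 CPM) was higher and 3 (AXL, CAV1 and ZEB1) were lower. Of the luminal and epithelial markers, CDH1, ESR1 and PGR lay at 0.0282, 0.207 and 0.08 CPM in DMSO, but EPCAM and CLDN7 at 18.5 and 15.5 CPM. In such bulk RNA, more cells expressing a gene and more RNA per cell cannot be told apart.

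RFX transcription factors switch on many ciliary genes through a palindromic promoter sequence called the X-box, each arm of which is close to GTTGCC. RefSeq promoters on GRCh38.p14, from 250 bases before to 50 after the start of a transcript, matched 69 of the 79 members. The letters GTTGCC, searched on both strands, stood in 35 of the 69 (50.7%) and in 3323 of 27305 promoters in all (12.2%). Both arms together, spelled GTTNCCNNGGNAAC, stood in 2 members (2.9%), DNAH1 and CFAP45, and in 0.458% of all promoters. The 120 bases before the start are shown for 6 members that hold an arm and differ in what happened to them. Capitals mark GTTGCC, its reverse complement GGCAAC, or a whole palindrome, of which GTTGCC can be the left arm. DNAH1 (chr3:52316199-52316318, plus strand) holds a perfect palindrome, which 8 of the 27305 promoters have, CFAP45 (chr1:159900166-159900285, minus strand) holds a palindrome and a separate arm, and the others, DNAH6 (chr2:84516378-84516497, plus), RSPH4A (chr6:116616359-116616478, plus), IFT27 (chr22:36776120-36776239, minus) and DYNC2H1 (chr11:103109306-103109425, plus), hold 1 marked arm each. Only 1 promoter per gene was searched. Those of DNAH1 and DNAH6 lie inside the annotated span of the gene, so starts further upstream were not searched. Each is written 5′ to 3′ on the gene's strand.
DNAH1: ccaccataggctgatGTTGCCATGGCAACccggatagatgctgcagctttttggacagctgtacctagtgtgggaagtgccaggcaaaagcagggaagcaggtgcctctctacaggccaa
CFAP45: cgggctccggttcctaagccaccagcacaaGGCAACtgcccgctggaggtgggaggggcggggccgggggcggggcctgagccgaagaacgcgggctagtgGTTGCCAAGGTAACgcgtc
DNAH6: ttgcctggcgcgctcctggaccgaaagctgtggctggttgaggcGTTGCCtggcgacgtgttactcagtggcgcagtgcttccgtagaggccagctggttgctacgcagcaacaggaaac
RSPH4A: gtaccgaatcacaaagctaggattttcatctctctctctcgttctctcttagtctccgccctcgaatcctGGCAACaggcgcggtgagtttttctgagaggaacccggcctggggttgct
IFT27: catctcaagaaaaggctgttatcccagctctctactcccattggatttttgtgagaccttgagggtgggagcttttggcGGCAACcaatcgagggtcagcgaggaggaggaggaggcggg
DYNC2H1: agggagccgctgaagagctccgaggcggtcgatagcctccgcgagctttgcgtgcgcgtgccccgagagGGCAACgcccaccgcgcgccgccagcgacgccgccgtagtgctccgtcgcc

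Panobinostat raised most of the cilia genes that could be tested. Of 51 members with enough counts, 35 were higher, 3 lower and 13 not called (edgeR's quasi-likelihood test, Benjamini-Hochberg adjusted p under 0.05 over all 13341 tested genes), where 58.9% of all tested genes were called, 30.2% higher and 28.6% lower. The median log2 fold change, always panobinostat over DMSO, was 0.66 over the tested members and 0.0 over all tested genes. At least 2-fold changes were called in 15 members upward and 1 downward, against 10.9% and 4.66% of all tested genes. The panobinostat values lay above all DMSO values in 38 members and below them in 4, which was the case for 35% and 34% of all tested genes. The filter on low counts bears on these counts, because a gene near 0 in DMSO passes it through its panobinostat libraries: of 366 such genes under 1 CPM in DMSO, 97.8% were higher. Among members with at least 1 CPM in DMSO, 29 were higher, 3 lower, 13 not called and 2 not tested, while 28.3% of all such genes tested were higher and 29.4% lower.

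The 28 untested members comprised BBS1, the 2 antisense transcripts and 25 of the motile group, and 3 of the 28 had 0 counts in every library, 13 had under 10 and 12 had 10 or more. Panobinostat replicate 4 was the lowest of the 3 panobinostat libraries in 32 of the 35 members called higher. Without it, 57 members were tested, 43 were higher and 4 lower, the median was 0.83, and 74.6% of all tested genes were called, 37.6% higher and 36.9% lower.

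**Figure D1:**
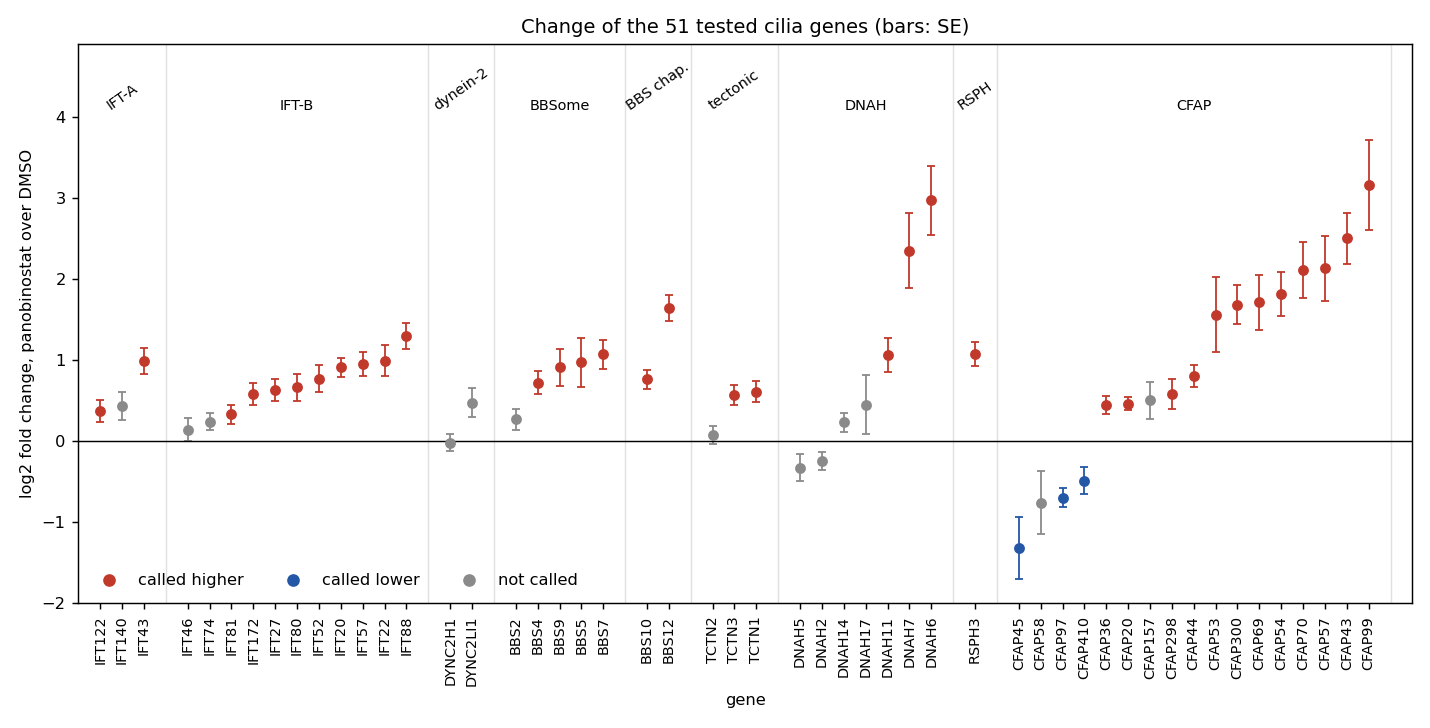
Log2 fold change of panobinostat over DMSO (vertical axis) for each of the 51 tested cilia genes (horizontal axis), ordered within its group, with bars of 1 SE and colours for the call at an adjusted p under 0.05. The 35 genes called higher run through every tested group but dynein-2, the 3 called lower are all CFAP genes, and the widest range, from −1.32 to 3.16, is in CFAP.

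IFT-A, the complex that returns cargo to the ciliary base and admits membrane receptors, was higher in 2 of 3 genes, with a median log2 fold change of 0.43. IFT43, a small peripheral subunit, had 8.73, 10.7 and 8.53 CPM in the DMSO libraries and 20.2, 19.9 and 15.2 CPM in panobinostat replicates 1, 2 and 4. The treatments did not overlap, and IFT43 rose 1.99-fold (log2 fold change 0.99 ± 0.16 SE, adjusted p = 0.00232). IFT122, a core subunit, had 18.9, 19.4 and 18.5 CPM in DMSO and 28.3, 22.2 and 21.8 CPM in panobinostat, with 1 library well above the others. Its call (0.37 ± 0.13, adjusted p = 0.0393) was lost on leaving out any DMSO library or panobinostat replicate 1 or 2, with adjusted p of 0.0512 to 0.181 over these 5 runs, and its log2 fold change was 0.22 without panobinostat replicate 1. IFT140, the largest subunit among the 3, overlapped between treatments, with 8.9, 11.4 and 12.6 CPM in DMSO and 15.7, 15.3 and 12.5 CPM in panobinostat, and was not called (0.43 ± 0.17, adjusted p = 0.0569). Without panobinostat replicate 4 all 3 genes were called higher, with a median of 0.54.

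IFT-B, which carries tubulin and other building material to the tip, was higher in 9 of 11 genes and lower in 0, with a median of 0.66. IFT88, without which cells grow no cilium, had 11.2, 9.68 and 9.0 CPM in DMSO and 26.0, 27.4 and 20.2 CPM in panobinostat. Every panobinostat library lay above every DMSO library, and the rise of 2.44-fold (1.29 ± 0.16, adjusted p = 0.000922) was the one IFT-B rise of at least 2-fold. IFT22, a small GTPase-like subunit, had 10.3, 7.69 and 10.6 CPM in DMSO and 21.9, 20.0 and 14.7 CPM in panobinostat (0.99 ± 0.19, adjusted p = 0.004). IFT57, which lies near the kinesin-2 contact of the train, had 24.9, 26.8 and 25.1 CPM in DMSO and 54.9, 55.5 and 37.9 CPM in panobinostat (0.95 ± 0.15, adjusted p = 0.00221). IFT20, which also works at the Golgi in sorting proteins for the cilium, had 14.7, 16.8 and 13.8 CPM in DMSO and 29.8, 29.4 and 25.9 CPM in panobinostat (0.91 ± 0.12, adjusted p = 0.00115). None of these 3 overlapped between treatments. A share of 11.2% of the annotated exons of IFT20 overlaps TMEM97 on the other strand, and no source used here states whether the counting used strand, so part of its reads is uncertain.

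IFT52, a core subunit that links IFT88 to the rest of the complex, had 40.3, 41.8 and 39.4 CPM in DMSO and 77.6, 79.2 and 50.1 CPM in panobinostat (0.77 ± 0.17, adjusted p = 0.00578). IFT80 had 24.5, 22.6 and 21.7 CPM in DMSO and 36.0, 45.6 and 27.8 CPM in panobinostat (0.66 ± 0.17, adjusted p = 0.0118). In both genes panobinostat replicate 4 lay closest to DMSO, and the call of IFT80 was lost without DMSO replicate 3 (adjusted p = 0.052). IFT27, a small GTPase that connects IFT-B to BBSome export and whose promoter is shown above, had 12.9, 11.7 and 11.9 CPM in DMSO and 20.0, 21 and 15.7 CPM in panobinostat (0.63 ± 0.14, adjusted p = 0.00687). IFT172, the largest IFT-B protein, had 35.8, 32.6 and 33.2 CPM in DMSO and 56.3, 53.7 and 41.5 CPM in panobinostat (0.58 ± 0.13, adjusted p = 0.00606). IFT81 and IFT74 form the pair that binds tubulin. IFT81 had 32.0, 32.2 and 34.6 CPM in DMSO and 44.0, 45.2 and 35.1 CPM in panobinostat (0.33 ± 0.12, adjusted p = 0.0365), a call that was lost on leaving out any library but panobinostat replicate 4 (adjusted p of 0.0806 to 0.131 over the alternatives that lost it). IFT74 did not overlap, at 22.9, 22.1 and 22.3 CPM in DMSO and 25.9, 25.0 and 28.7 CPM in panobinostat, and was not called (0.24 ± 0.1, adjusted p = 0.0675). IFT46, which carries outer dynein arms, overlapped between treatments at 13.5 to 18.0 CPM in DMSO and 15.7 to 19.1 CPM in panobinostat and was not called (0.14 ± 0.14, adjusted p = 0.432).

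Summed over the 11 genes, IFT-B lay at 248, 237 and 238 CPM in DMSO and at 411, 419 and 313 CPM in panobinostat. Summed IFT-A lay at 36.5, 41.4 and 39.6 CPM in DMSO and at 64.2, 57.3 and 49.5 CPM in panobinostat. Both sums were separate between treatments, with panobinostat replicate 4 nearest to DMSO in each. Without that library 9 of the 11 IFT-B genes were again called higher, with a median of 0.74.

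The dynein-2 motor, which drives the return trip, was called in 0 of its 2 members by edgeR and by DESeq2's Wald test, and in 1 by limma-voom or at an unadjusted p under 0.05. DYNC2H1, its heavy chain, had 28.5, 30.9 and 26.1 CPM in DMSO and 26.9, 30.0 and 27.8 CPM in panobinostat. The ranges overlapped almost fully, and the log2 fold change was −0.02 ± 0.1 (adjusted p = 0.886), with an SE no larger than those of the IFT genes that rose. DYNC2LI1, the light intermediate chain, had 7.63, 5.27 and 5.9 CPM in DMSO and 9.07, 9.37 and 8.13 CPM in panobinostat. It did not overlap and missed the threshold (0.47 ± 0.18, adjusted p = 0.051), but was called higher with library size alone, upper-quartile factors or limma-voom, and without DMSO replicate 1 or panobinostat replicate 4.

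**Figure D2:**
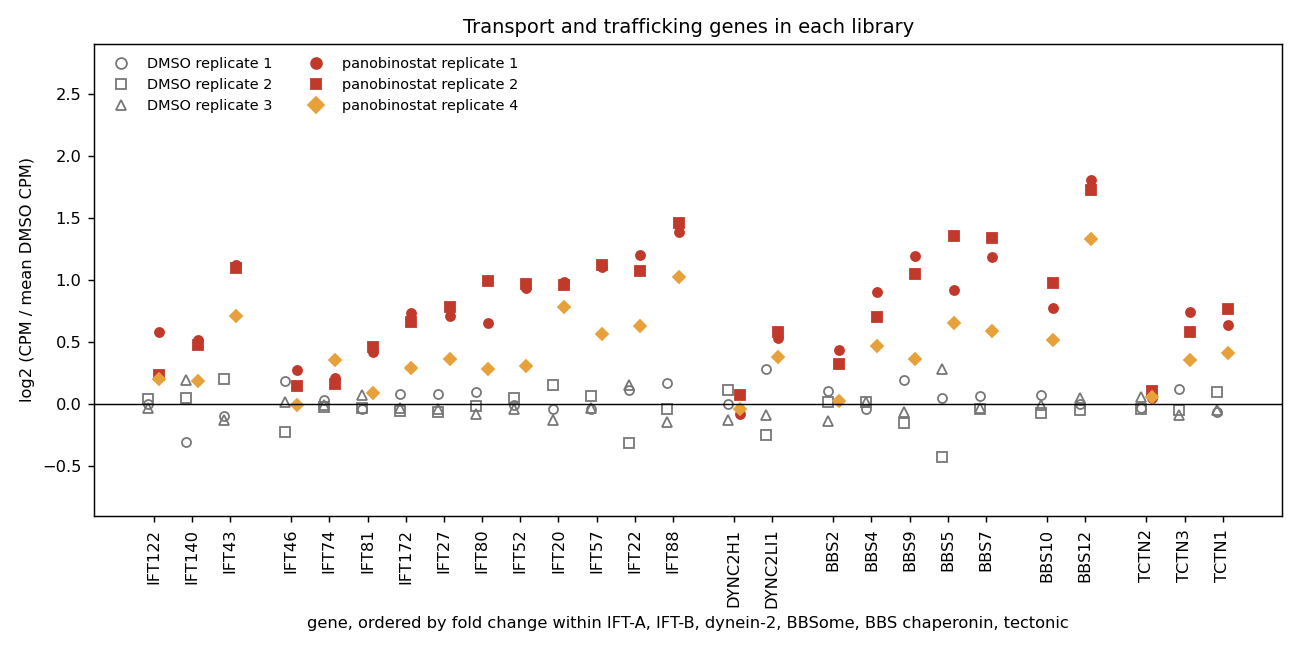
Log2 of each library's CPM over the mean of the 3 DMSO libraries (vertical axis) for the 26 tested transport and gate genes (horizontal axis), open symbols for DMSO and filled symbols for panobinostat. In IFT88, IFT57 and BBS12 the 3 panobinostat libraries lie above all DMSO libraries with replicate 4 (diamond) the lowest, whereas in DYNC2H1, TCTN2 and IFT46 they lie among the DMSO values or within 0.3 of the line.

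The BBSome was higher in 4 of its 5 tested genes, with a median of 0.91, and its sum rose from 74.2, 69.9 and 68.7 CPM in DMSO to 134, 134 and 91.8 CPM in panobinostat. BBS7, a core subunit of the propeller type, had 26.4, 24.5 and 24.7 CPM in DMSO and 57.4, 63.8 and 37.8 CPM in panobinostat, a rise of 2.1-fold (1.07 ± 0.18, adjusted p = 0.00275). BBS9, its scaffold, had 8.14, 6.4 and 6.83 CPM in DMSO and 16.3, 14.7 and 9.18 CPM in panobinostat (0.91 ± 0.23, adjusted p = 0.0102). BBS4, which contacts pericentriolar satellites, had 13.2, 13.8 and 13.8 CPM in DMSO and 25.5, 22.1 and 18.8 CPM in panobinostat (0.72 ± 0.14, adjusted p = 0.00407). These 3 genes were separate between treatments in every library.

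BBS5, the lipid-binding subunit, was the least expressed of the called BBSome genes, with 1.19, 0.854 and 1.4 CPM in DMSO and 2.17, 2.94 and 1.81 CPM in panobinostat (0.97 ± 0.3, adjusted p = 0.0247). With 29 counts in DMSO and 61 in panobinostat, its call was lost without DMSO replicate 1 or 2 or panobinostat replicate 1 or 2 (adjusted p of 0.0704 to 0.125 over the alternatives that lost it). BBS2, which pairs with BBS7, behaved otherwise: it had 24.6, 23.1 and 20.8 CPM in DMSO and 30.9, 28.5 and 23.2 CPM in panobinostat, overlapped, and was not called (0.27 ± 0.13, adjusted p = 0.109), although it was called higher without panobinostat replicate 4. BBS1, the subunit that binds ARL6 and cargo, did not pass the filter. It had 25 DMSO counts and 40 panobinostat counts, a ratio of 1.48 with a 95% exact binomial interval of 0.877 to 2.55 that covers counting error only. Of the 6 BBSome genes, all tested when panobinostat replicate 4 was left out, 5 were then higher, with a median of 0.94.

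Both chaperonin-like members, which help the BBSome assemble, were higher. BBS12 had 7.8, 7.54 and 8.07 CPM in DMSO and 27.2, 25.7 and 19.6 CPM in panobinostat, a rise of 3.11-fold (1.64 ± 0.16, adjusted p = 0.000613). It was the largest rise among the 26 tested transport and gate genes, and DMSO values differed from each other by far less than from panobinostat. BBS10 had 35.3, 32.0 and 33.5 CPM in DMSO and 57.6, 66.2 and 48.0 CPM in panobinostat (0.76 ± 0.12, adjusted p = 0.00238). Their partner MKKS, another chaperonin-like protein outside the symbol rule, moved the other way, at 95.8 CPM in DMSO and 81.4 CPM in panobinostat (−0.24 ± 0.09, adjusted p = 0.0429), and its call was lost on leaving out any library but panobinostat replicate 4 (adjusted p of 0.0547 to 0.137 over the alternatives that lost it).

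Among the tectonics, TCTN1 had 11.4, 12.7 and 11.5 CPM in DMSO and 18.5, 20.2 and 15.8 CPM in panobinostat (0.61 ± 0.13, adjusted p = 0.00586). TCTN3, which is secreted or membrane bound and acts in Hedgehog signalling, had 43.0, 38.4 and 37.2 CPM in DMSO and 66.1, 59.2 and 50.6 CPM in panobinostat (0.57 ± 0.12, adjusted p = 0.00508). TCTN2 was level, with 15.2, 15.1 and 16.1 CPM in DMSO and 16.0, 16.7 and 16.1 CPM in panobinostat (0.07 ± 0.11, adjusted p = 0.57). So 2 of the 3 gate genes rose, and the third did not pass the test, also without panobinostat replicate 4 (median 0.57 with it and 0.66 without).

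Over the transport and gate genes together, 19 of 26 tested were higher and 0 lower by edgeR, with a median of 0.64 and 3 genes at least 2-fold up. Without panobinostat replicate 4, 22 of 27 were higher and 0 lower, with a median of 0.72. Of the 19 calls, 15 were kept in every alternative, and the 4 lost in at least 1 were those of IFT122, IFT81, IFT80 and BBS5. Per kilobase of annotated exon the levels in DMSO ran from 0.174 CPM for BBS1 to 15.9 CPM for IFT52.

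**Figure D3:**
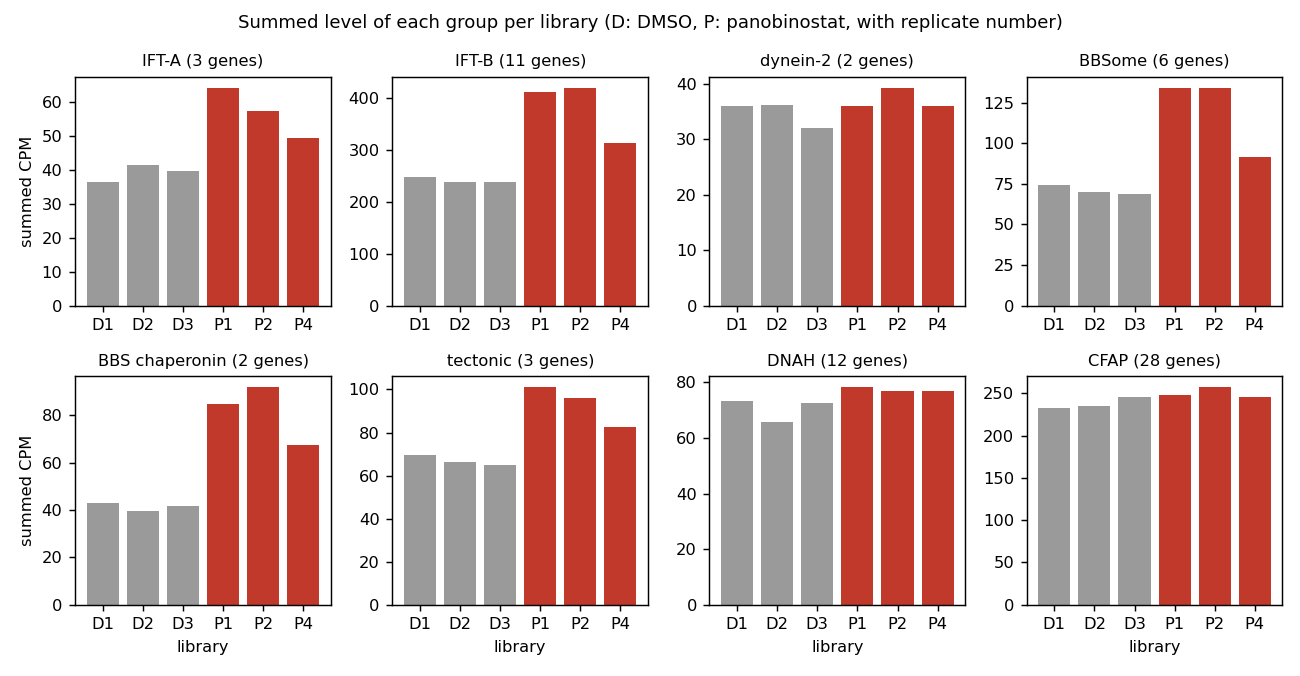
Summed CPM (vertical axis, from 0, a separate scale in each panel) of 8 groups of cilia genes in each of the 6 libraries (horizontal axis; D, DMSO; P, panobinostat). The IFT-A, IFT-B, BBSome, chaperonin and tectonic sums are higher in each panobinostat library than in any DMSO library, while the dynein-2 sums lie between 32.0 and 39.3 CPM and the CFAP sums between 232 and 257 CPM.

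The motile group held rises, falls and many genes with few or no counts. Of its 50 genes 25 were tested, of which 16 were higher, 3 lower and 6 not called, with a median of 0.80, and 12 of the 16 rose at least 2-fold. The 6 tested genes under 1 CPM in DMSO, which passed the filter through their panobinostat libraries, were all among the 16. Of the 19 tested genes with at least 1 CPM in DMSO, 10 were higher, 3 lower and 6 not called, with a median of 0.46. The summed level changed little, from 311, 310 and 326 CPM in DMSO to 344, 351 and 338 CPM in panobinostat, and CFAP97, which fell, held 113, 110 and 120 CPM of it in DMSO and 61.4, 67.5 and 84.0 CPM in panobinostat. Without panobinostat replicate 4, 30 were tested, 21 higher and 4 lower, with a median of 1.15. Of the 16 calls, 13 were kept in every alternative that tested them.

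Axonemal dynein heavy chains, the motors that bend the axoneme, were higher in 3 of 7 tested genes and lower in 0 by edgeR, with a median of 0.45, and 4 of the 7 had an unadjusted p under 0.05. Without panobinostat replicate 4, 3 of 8 were higher and 1 lower, with a median of 0.27. Of all tested genes, 30.2% were higher with all libraries. DNAH6 and DNAH7 averaged 0.4 and 0.713 CPM in DMSO, and under 1 CPM 97.8% of all tested genes were higher. Among the tested heavy chains with at least 1 CPM in DMSO only DNAH11 was called higher, beside 28.3% of all such genes. DNAH6, an inner-arm heavy chain whose promoter is shown above, had 0.593, 0.142 and 0.465 CPM in DMSO and 3.94, 4.04 and 2.26 CPM in panobinostat, a rise of 7.83-fold (2.97 ± 0.43, adjusted p = 0.00156) that rests on 11 counts in DMSO and 97 in panobinostat. DNAH7, also of the inner arm, had 0.508, 0.854 and 0.776 CPM in DMSO and 4.01, 4.78 and 1.66 CPM in panobinostat (2.35 ± 0.46, adjusted p = 0.00419). DNAH11, of the outer arm, had 3.3, 3.99 and 3.1 CPM in DMSO and 7.82, 8.09 and 5.57 CPM in panobinostat (1.06 ± 0.21, adjusted p = 0.00461). None of these 3 overlapped between treatments.

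The other 4 tested heavy chains were not called, with log2 fold changes from −0.33 to 0.45. DNAH2, an inner-arm chain, was the most abundant, with 42.2, 37.9 and 40.3 CPM in DMSO and 31.7, 31.6 and 38.2 CPM in panobinostat (−0.25 ± 0.11, adjusted p = 0.0742), and was called lower without panobinostat replicate 4 (−0.36). Of the untested heavy chains, DNAH1 had 39 DMSO counts and 42 panobinostat counts, a ratio of 0.997 (95% counting interval 0.629 to 1.58, as for the ratios that follow). DNAH1 is the member with the perfect palindrome. DNAH3 went from 4 to 25 counts, a ratio of 5.79 (2.0 to 22.9), and DNAH12 from 5 to 18, a ratio of 3.33 (1.19 to 11.5) whose libraries overlapped. The summed level of the 12 genes, 73.1, 65.9 and 72.6 CPM in DMSO and 78.2, 76.8 and 76.8 CPM in panobinostat, is thus mainly that of DNAH2 and DNAH14, the latter at 16.5, 14.7 and 18.8 CPM in DMSO and 19.1, 19.7 and 19.9 CPM in panobinostat (0.23 ± 0.12, adjusted p = 0.139).

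Of the 2 intermediate chains, which anchor the outer arm, DNAI2 had 0 counts in every library. DNAI1 had 0, 1 and 0 counts in DMSO and 16, 3 and 6 in panobinostat, a ratio of 23.1 (3.79 to 950). It was seen in all 3 treated libraries, at under 1.1 CPM in each.

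Radial spokes carry signals from the central microtubule pair to the dyneins. RSPH3, the one tested gene of 8, had 5.25, 6.55 and 6.21 CPM in DMSO and 12.7, 13.1 and 11.6 CPM in panobinostat, a rise of 2.09-fold with no overlap (1.07 ± 0.15, adjusted p = 0.00142). RSPH3 protein also binds protein kinase A outside cilia. A further radial spoke gene was tested without panobinostat replicate 4, and both were then higher. RSPH4A, a spoke head protein found in motile cilia, had 1, 0 and 0 counts in DMSO and 43, 13 and 8 in panobinostat, a ratio of 59.2 (10.3 to 2380), which puts it at 2.83, 2.39 and 1.2 CPM in the treated libraries. Its spoke head partner RSPH9 was level, with 14 counts in DMSO and 16 in panobinostat (ratio 1.06, 0.484 to 2.34), and 23.0% of its annotated exons are shared with a gene on the other strand. The remaining 5 genes had under 10 counts each, among them the near-identical copies RSPH10B and RSPH10B2, between which reads cannot be divided.

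The CFAP genes held the largest rise among the 51 tested members and all 3 falls. CFAP proteins are a mixed family: some sit inside the axonemal microtubules or on the central pair, and others work outside motile cilia. Of 28 genes 17 were tested, 12 higher, 3 lower and 2 not called, with a median of 0.80, and 8 rose at least 2-fold. Leaving out panobinostat replicate 4 gave 20 tested, 16 higher and 3 lower, and a median of 1.70. CFAP99 had 0.169, 0.569 and 0.465 CPM in DMSO and 4.8, 2.57 and 1.81 CPM in panobinostat, a rise of 8.95-fold (3.16 ± 0.56, adjusted p = 0.00312) on 9 against 99 counts. CFAP43, needed for the sperm tail, had 0.339, 0.427 and 0.465 CPM in DMSO and 2.5, 2.02 and 2.26 CPM in panobinostat (2.50 ± 0.31, adjusted p = 0.000996), a rise of like size in all 3 treated libraries. CFAP57 had 1.1, 1.57 and 0.776 CPM in DMSO and 6.57, 5.33 and 2.71 CPM in panobinostat (2.13 ± 0.4, adjusted p = 0.00368). A share of 11.6% of its annotated exons overlaps EBNA1BP2 on the other strand, so part of its reads is uncertain.

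CFAP70, a component near the outer dynein arm, had 1.86, 0.712 and 1.24 CPM in DMSO and 6.44, 6.98 and 4.21 CPM in panobinostat (2.11 ± 0.34, adjusted p = 0.00225). CFAP54, of the central pair, had 1.02, 0.854 and 0.621 CPM in DMSO and 2.83, 3.49 and 3.01 CPM in panobinostat (1.81 ± 0.27, adjusted p = 0.00181). CFAP69, also a central pair protein, had 1.69, 0.569 and 1.4 CPM in DMSO and 4.21, 5.15 and 3.46 CPM in panobinostat (1.71 ± 0.34, adjusted p = 0.00444). All 6 of these genes were separate between treatments, and all stayed under 7 CPM with the drug. The other 6 called higher had log2 fold changes from 0.44 to 1.68, and calls were lost for CFAP36 without DMSO replicate 1 (adjusted p = 0.0524), for CFAP298 without DMSO replicate 1 or 3 or panobinostat replicate 2 (0.0548 to 0.0959), and for CFAP53 without DMSO replicate 1 or 3 or panobinostat replicate 1 or 2 (0.051 to 0.104 over the alternatives that lost it). These 3 are named because their calls were lost. Of the annotated exons of CFAP298, 23.9% overlap AP000275.2 on the same strand, so part of its reads is uncertain.

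The fall of CFAP97 weighed most on the family's sum, since it was the most abundant member, with the levels given above and no overlap (−0.70 ± 0.12, adjusted p = 0.00261). It was the one fall kept in every alternative. CFAP45, a protein of the microtubule lumen in motile cilia, had 13.9, 13 and 15.8 CPM in DMSO and 3.48, 3.68 and 10.7 CPM in panobinostat. Panobinostat replicate 4 lay near DMSO and the other 2 far below it, so that the change was −1.32 ± 0.38 (adjusted p = 0.0186) with all libraries and −2.0 without replicate 4, and the call was lost without DMSO replicate 1 or 3 or panobinostat replicate 1 or 2 (adjusted p of 0.0592 to 0.0651). CFAP45 is the member whose promoter, shown above, holds a palindrome and a separate arm. CFAP410, a ciliary base protein, had 6.1, 6.69 and 7.6 CPM in DMSO and 5.0, 4.6 and 4.67 CPM in panobinostat (−0.49 ± 0.17, adjusted p = 0.0356), and its call was lost without DMSO replicate 2 or 3 or panobinostat replicate 1 or 2 (0.0723 to 0.124 over the alternatives that lost it). With 46.4% of its annotated exons shared with another strand's gene, its value is uncertain.

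Several CFAP genes too low to be tested had more counts in panobinostat than in DMSO. CFAP46, of the central pair, had 1, 0 and 1 counts in DMSO and 25, 8 and 5 in panobinostat, a ratio of 17.6 (4.55 to 151). CFAP77 went from 3 to 39 counts in all, a ratio of 12.0 (3.83 to 60.9), CFAP97D1 from 1 to 21 (19.4, 3.13 to 804) and CFAP299 from 12 to 60 (4.63, 2.46 to 9.45). In each of these 4 every treated library lay above every DMSO library. CFAP52, from 13 to 25 counts, overlapped (1.78, 0.877 to 3.79). Of the 12 untested members with at least 10 counts, 7 were higher without overlap. The share among all untested genes with as many counts was not computed, so this count has no background. Genes near 0 in DMSO reach 10 counts mainly through their treated libraries.

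**Figure D4:**
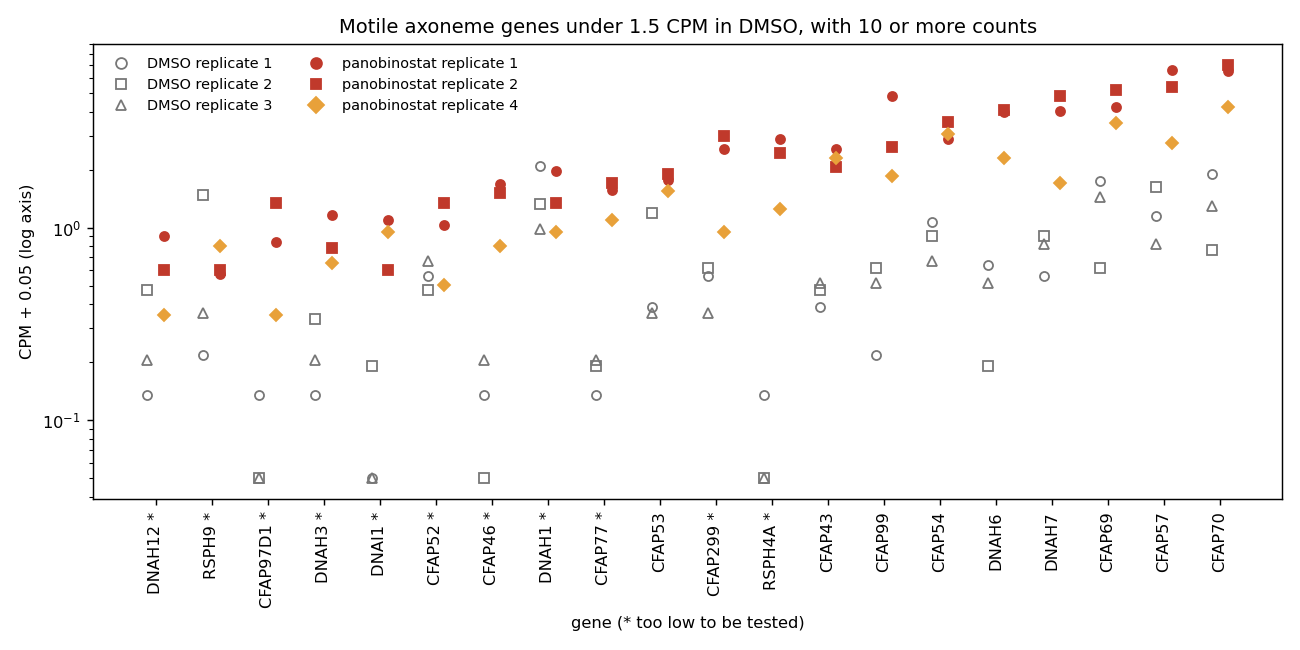
CPM plus 0.05 on a log axis (vertical) in each library for the 20 motile genes that average under 1.5 CPM in DMSO and have 10 or more counts in all (horizontal axis); an asterisk marks those too low to be tested. Treated libraries (filled) lie above DMSO libraries (open) in most of these genes, from near 0 to at most 7 CPM, but overlap with them in DNAH1, RSPH9, CFAP52 and DNAH12. Genes near 0 in DMSO reach 10 counts mainly through their treated libraries, so the choice of genes in part sets this direction.

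The letters GTTGCC stood in promoters of members of every call. They stood in 12 of 31 matched members called higher (38.7%), 5 of 10 not called (50.0%), 2 of 3 called lower (66.7%) and 16 of 25 not tested (64.0%). By group they stood in 5 of 10 IFT-B promoters, in both dynein-2 promoters, in 20 of 43 motile ones (46.5%) and in 5 of 7 of the RSPH genes. In the promoters printed above, an arm precedes genes that rose (DNAH6, IFT27), a gene seen almost only with the drug (RSPH4A), a level one (DYNC2H1) and one that fell (CFAP45).

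The rest of the ciliary machinery was followed through lists of genes outside the symbol rule. Among 14 IFT and dynein-2 genes under other symbols, 9 were higher, 1 lower and 4 not called, with a median of 0.51 (9 higher, 2 lower and 0.59 without panobinostat replicate 4). WDR19, the IFT-A subunit also called IFT144, rose from 38.9 to 89.4 CPM (1.20 ± 0.17, adjusted p = 0.00143), and TRAF3IP1, the IFT-B subunit IFT54, from 21.5 to 38.4 CPM (0.84 ± 0.13, adjusted p = 0.00195). The 2 intermediate chains of dynein-2 went in opposite directions: WDR60 rose from 25.0 to 47.0 CPM (0.92 ± 0.15, adjusted p = 0.0024), and WDR34 fell from 138 to 104 CPM (−0.41 ± 0.07, adjusted p = 0.00322). All 4 tested kinesin-2 genes were higher, with a median of 0.87 (5 of 5 and 1.23 without panobinostat replicate 4), among them the motor subunit KIF3A, from 24.5, 25.6 and 27.6 CPM in DMSO to 75.4, 82.7 and 53.6 CPM in panobinostat (1.45 ± 0.16, adjusted p = 0.000721). The outbound motor thus rose in every tested gene, and dynein-2 genes rose, fell or were not called.

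Of 8 further BBS genes under other symbols 4 were higher and 1 lower, with a median of 0.40 (5, 1 and 0.44 without panobinostat replicate 4), and ARL6, the GTPase that recruits the BBSome to membranes, rose from 15.8 to 42.1 CPM (1.40 ± 0.18, adjusted p = 0.001). LZTFL1, which restrains BBSome entry into cilia, rose as well, from 24.9 to 44.6 CPM (0.84 ± 0.11, adjusted p = 0.0013). Genes for ciliary membrane cargo were higher in 8 of 12 tested and lower in 1 (median 0.60; 8, 2 and 0.64 without panobinostat replicate 4), including the lipid-cargo carrier UNC119 (1.59 ± 0.2, adjusted p = 0.000996) and the GTPase that unloads it, ARL3 (1.15 ± 0.15, adjusted p = 0.00112), while INPP5E, a phosphatase that sets the lipids of the ciliary membrane, was lower (−0.60 ± 0.15, adjusted p = 0.0094). The transition zone was divided, 9 of 23 higher and 6 lower with a median of 0.08, near the background (10 higher, 7 lower and 0.14 without panobinostat replicate 4). There TMEM218, a membrane protein of that zone, rose (1.34 ± 0.18, adjusted p = 0.00115), and RPGRIP1 fell (−1.0 ± 0.23, adjusted p = 0.00725). Basal body and ciliogenesis genes were higher in 12 of 21 and lower in 2 (median 0.29; 13, 3 and 0.31 without panobinostat replicate 4), with CEP19, which recruits a GTPase for IFT entry, at 9.77 CPM in DMSO and 38.1 CPM in panobinostat (1.97 ± 0.2, adjusted p = 0.000654), and CEP97, a protein that caps centrioles and holds back ciliogenesis, at 71.7 and 40.2 CPM (−0.84 ± 0.18, adjusted p = 0.00586).

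Genes that drive cilium disassembly were higher in 2 of 9 tested and lower in 5, with a median of −0.26 (the same counts and −0.36 without panobinostat replicate 4). AURKA, the kinase that starts disassembly and also acts in mitosis, had 304, 289 and 287 CPM in DMSO and 94.6, 98.5 and 192 CPM in panobinostat (−1.20 ± 0.25, adjusted p = 0.00511). HDAC6, the tubulin deacetylase that AURKA activates and a target of panobinostat, had 87.9, 90.2 and 90.8 CPM in DMSO and 64.4, 68.9 and 76.0 CPM in panobinostat (−0.36 ± 0.08, adjusted p = 0.00654). Both fell with no overlap, and the call of AURKA was lost when no filter was applied (adjusted p = 0.0784), as was that of PLK1 (0.0748). NEDD9, the scaffold that activates AURKA, moved the opposite way, from 2.12, 1.42 and 1.4 CPM to 23.1, 22.2 and 12.3 CPM (3.49 ± 0.32, adjusted p = 0.000573). Of these genes, AURKA, PLK1 (−1.29 ± 0.26, adjusted p = 0.00486) and TTK (−0.83 ± 0.16, adjusted p = 0.00426) are mitotic kinases too.

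Hedgehog genes, whose proteins signal through the primary cilium, were higher in 5 of 12 tested and lower in 3, with a median of 0.10. Of all tested genes, 30.2% were higher and 28.6% lower. Leaving out panobinostat replicate 4 gave 7 of 14 higher and 5 lower, and a median of 0.57, beside 37.6% and 36.9% of all tested genes. The genes tested only in that run lay under 1 CPM in DMSO. SHH, the ligand, rose from 1.18 to 5.24 CPM (2.17 ± 0.34, adjusted p = 0.00218), and the co-receptors CDON and BOC went in opposite directions, CDON from 21.6 to 52.5 CPM (1.28 ± 0.16, adjusted p = 0.000996) and BOC from 15.3 to 8.19 CPM (−0.91 ± 0.16, adjusted p = 0.00313).

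The list of transcription factors of ciliary genes was a broad one, which also held RFX5, RFX7 and the cyclin gene CCNO. Of 12 tested, 2 were higher and 7 lower, with a median of −0.60. RFX5, RFX7 and CCNO were among the 7 lower. Without panobinostat replicate 4, 3 were higher and 8 lower, with a median of −0.73. RFX2 had 9.75, 10.5 and 10.2 CPM in DMSO and 23.1, 26.1 and 17.9 CPM in panobinostat (1.14 ± 0.16, adjusted p = 0.00138). RFX3, often named with RFX2 as a ciliary RFX factor, had 8.9, 10.7 and 11 CPM in DMSO and 12.4, 13.4 and 12.6 CPM in panobinostat and was not called (0.34 ± 0.14, adjusted p = 0.0655). RFX1 fell, from 22.7, 24.9 and 27.9 CPM to 10.1, 9.37 and 17.8 CPM (−1.03 ± 0.23, adjusted p = 0.00668). FOXJ1, the master factor of motile cilia, was not tested, with 0 counts in all 3 DMSO libraries and 29 in panobinostat, at 1.12, 1.29 and 0.752 CPM. MCIDAS, which with GMNC starts the multiciliated programme, fell from 8.22, 9.25 and 6.98 CPM to 1.12, 2.57 and 3.01 CPM (−2.03 ± 0.33, adjusted p = 0.00248), and GMNC rose from 0.401 to 3.49 CPM on average (3.46 ± 0.65, adjusted p = 0.00366). CCNO, a further gene of that programme, fell from 13.8 to 6.29 CPM (−1.18 ± 0.24, adjusted p = 0.00464).

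Axonemal genes outside the symbol rule resembled the low motile members. Of 43 such genes 21 were tested, 17 higher, 1 lower and 3 not called, with a median of 1.20. With panobinostat replicate 4 left out, 24 were tested, 19 higher and 1 lower, and the median was 2.09. A further 22 were too low to be tested. The filter effect given above bears on the tested genes of this list. Many of those called higher, TTC29, IQUB and AK7 among them, lay under 1 CPM in DMSO. At that level 97.8% of all tested genes were higher. TTC29, IQUB and AK7 had at most 0.136 CPM on average in DMSO and 3.88, 3.38 and 2.02 CPM in panobinostat, and ARMC4, which docks outer arms, fell from 17.1 to 7.31 CPM (−1.22 ± 0.21, adjusted p = 0.00265). Of the factors that assemble axonemal dyneins in the cytoplasm, 6 of 11 tested were higher and 2 lower (median 0.26; 9 of 12, 2 and 0.28 without panobinostat replicate 4), with DNAAF3 rising from 1.79 to 19.9 CPM (3.44 ± 0.32, adjusted p = 0.000592) and ZMYND10 from 0.179 to 3.69 CPM (4.47 ± 0.55, adjusted p = 0.000941). Cytoplasmic dynein-1, the related motor of the cell body, was higher in 2 of 9 tested and lower in 1 (median 0.02), and higher in 4 and lower in 3 without panobinostat replicate 4. Over all these pathway lists, 80 of 156 tested genes were higher and 30 lower, with a median of 0.31, and 94 of 163 and 39 without panobinostat replicate 4.

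Markers of other cell types were read beside these results. Of 9 multiciliated cell markers with a row, 5 were tested, 1 higher, 3 lower and 1 not called, and their summed level was 784 to 796 CPM in DMSO and 742 to 746 CPM in panobinostat, nearly all of it TUBB4B, a tubulin used widely. FOXJ1, TPPP3 and PIFO were at 0 counts in DMSO and at 29, 5 and 2 with the drug. Of 7 leukocyte and stromal markers, 3 were tested, 2 higher and 1 not called, and their sum was 23.8 to 26.2 CPM in DMSO and 63.7 to 98.5 CPM in panobinostat, mainly COL1A1 at 17.4 and 75.9 CPM. PTPRC and COL1A2 were at 0 counts in DMSO and at 2 and 1 with the drug. The part of these markers in the results on cilia genes was not tested.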

How the data were processed

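RNA of 6 libraries was sequenced on an Illumina HiSeq from a stranded mRNA kit, per the labels' protocols. The deposited table holds whole-number counts that were not normalised, made with featureCounts by its name. The submitters' processing notes list GRCh38.p14 and FastQC. The aligner, annotation and strand setting are not stated in these sources. Count columns were joined to symbols by gene identifier. The authors' own comparison in that table was not used.

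Counts were tested with edgeR 4.0.16 in R 4.3.3 (quasi-likelihood, robust fit, TMM, only treatment as a term). Genes passing filterByExpr numbered 13341, and Benjamini-Hochberg adjustment ran over all of them. SE values are the estimate divided by the root of F. Exact tests of 3 against 3 libraries cannot go below p = 0.1 and were not used. Intervals on counts are exact binomial at 95%. Alternatives were DESeq2 1.42.0 size factors or Wald test, upper-quartile or library-size scaling, limma-voom (limma 3.58.1), no filter, a replicate block and leaving out each library.

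Members, lists and rules were chosen with earlier results of these data known. Named were every tested transport and gate gene, up to 6 called DNAH, DNAI, RSPH or CFAP genes per direction and group at 1 CPM or more, untested members with at least 10 counts, up to 3 called genes per direction of each other list, and 6 fixed genes (FOXJ1, RFX1, RFX2, RFX3, HDAC6, AURKA). DNAH2, DNAH14, CFAP36, CFAP298, CFAP53, RFX5 and RFX7 fall outside that rule and were named after their values were seen. One gene among those the rule names from the other lists is not reported here and stays in the counts. Exon overlap and length come from GENCODE release 29, promoters from RefSeq on GRCh38.p14.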

Additional observations from a re-analysis of the deposited data

How the results depend on the processing

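No alternative reversed the direction of any of the 35 members called higher or the 3 called lower. Leaving out each library in turn gave 3106 to 5171 genes higher and 2624 to 5078 lower among all genes, 30 to 43 members higher and 1 to 4 lower, and 65 to 94 genes higher and 18 to 39 lower in the other pathway lists. By group it gave 1 to 3 higher in IFT-A, 7 to 9 in IFT-B, 3 to 5 in the BBSome and 14 to 21 in the motile group, with 1 to 4 motile genes lower. IFT-A fell to 1 higher with DESeq2's Wald test and with no filter, since IFT122 was lost in both. The calls of IFT81 in IFT-B, BBS5 in the BBSome and CFAP410 were lost in both too, and that of CFAP53 in the Wald test. The cause of these losses was not tested. Replicate numbers 1 and 2 occur in both treatments, but same-numbered libraries did not deviate together (r of 0.051 and 0.008). With a replicate block on these numbers, 40 members were higher and 3 lower: 44 of the 51 kept their side of the threshold, 6 passed it (BBS2, CFAP157, DNAH2, DNAH14, IFT140 and DYNC2LI1) and 1 (CFAP410) no longer did. Of those 6, all but DNAH14 were also called without panobinostat replicate 4. Number 3 occurs only in DMSO and number 4 only in panobinostat, so the block fits each of these libraries exactly. The treatment effect in that fit rests on replicates 1 and 2 of each treatment, and panobinostat replicate 4 has no part in it. Under DESeq2 size factors none of the 51 crossed the threshold. Low counts limit the motile group, of which 25 genes could not be tested.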
